A study of Rattus norvegicus with 6 samples.

Results

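Oxidative phosphorylation subunits were selected by name, as the genes whose only symbol in the platform annotation begins with Nduf, Uqcr, Atp5, or Cox followed by a number 4 to 8, or is Sdha, Sdhb, Sdhc, Sdhd or Cyc1. The rule found 87 of the 14217 genes measured, read by 97 of 31042 probe sets, and a gene with several probe sets was given their mean. Of these, 79 are subunits: 34 of complex I, 4 of complex II, 8 of complex III, 18 of complex IV and 15 of complex V. The other members are 6 assembly factors of complex I, 1 inhibitor of complex V (Atp5if1) and 1 pseudogene (Cox6c-ps1). RNA came from the prelimbic cortex (PL) contralateral to the operated side in male rats of the Sprague Dawley strain, 14 days after surgery on the left sciatic nerve, with 3 samples in each group. SNI stands for spared nerve injury, a model of neuropathic pain in which only the sural branch of the sciatic nerve keeps its continuity, since the tibial and common peroneal branches are severed. The control group had a sham operation that reached the nerve but severed no branch. The rats were 6 to 7 weeks old when acquired, and both groups were anaesthetized for surgery. The sources used here do not say whether a sample was 1 rat or a pool, and the p-values rest on the spread between samples, part of which may be technical.

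Oxidative phosphorylation is the process by which the inner mitochondrial membrane turns the energy of NADH and succinate into ATP. Complex I (NADH dehydrogenase) and complex II (succinate dehydrogenase) pass electrons to ubiquinone, complex III (cytochrome bc1) passes them to cytochrome c, and complex IV (cytochrome c oxidase) passes them to oxygen. Complexes I, III and IV pump protons, and the return of the protons through complex V (ATP synthase) drives the making of ATP. Neurons rely on this process for ion pumping and synaptic transmission, and most of the subunits are encoded in the nucleus.

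The values are log2 intensities that the authors made with RMA and quantile normalization, and from each probe set its median over the 6 samples was also subtracted. Differences between groups can therefore be read, but not levels, signal over background, or which cell markers are present at all, so the tissue label was not checked against marker levels. For a single probe set whose groups do not overlap, this centring also places the nearest SNI and control samples at the same distance on either side of 0. The arrays did not spread evenly: on the first principal component of all probe sets, which held 35.8% of the variance, control samples 1 and 3 lay at 21.9 and 16.04, control sample 2 at −6.18, and the SNI samples between −11.3 and −9.81. The hybridization controls, RNAs added in the same amount to each array, averaged 0.11 ± 0.070 in SNI samples and −0.16 ± 0.097 in control samples (SD, n = 3 each), and the groups did not overlap. For 3 housekeeping genes, the 3′ probe set minus the 5′ probe set, a sign of RNA quality, was 0.067 to 0.090 higher in SNI samples, with overlapping groups. Both control probe sets of GAPDH, an enzyme of glycolysis, were themselves lower in every SNI sample, with differences of −0.16 at the 3′ end and −0.23 at the 5′ end.

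No member passed limma's Benjamini-Hochberg adjusted p of 0.05, as none of the 14217 genes did (0%), and the smallest adjusted p of a member was 0.203, for Uqcrfs1. The differences are therefore described by their size, by an unadjusted p under 0.05 and by whether the groups overlap, and none is a call after adjustment. Oxidative phosphorylation mRNAs lay mostly lower in SNI samples: 74 of 87 members had a difference below 0, against 54.8% of all genes, with a median log2 difference of −0.062 against −0.011 over all genes. On the linear scale, these medians correspond to 95.8% and 99.2% of the control value. At an unadjusted p under 0.05, 18 members (20.7%) were lower and 0 were higher, against 9.19% and 3.96% of all genes. Every SNI sample lay below every control sample for 33 members (37.9%) and above for 2 members, Atp5f1e and Cox7a2l, against 13.7% and 6.39% of all genes. Over single probe sets, 16 of the 97 were lower at an unadjusted p under 0.05, against 7.47% of all probe sets. The mean over the 87 members was −0.042, −0.024 and −0.032 in SNI samples 1 to 3 and 0.035, 0.024 and 0.064 in control samples 1 to 3, which put all 3 SNI samples below all 3 control samples. The mean over all genes was also lower in every SNI sample. It was −0.0083, −0.0091 and −0.0032 in SNI samples 1 to 3 and 0.00075, 0.018 and 0.011 in control samples 1 to 3. In these tissue samples, fewer cells of a type and less RNA per cell cannot be told apart.

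The counts changed with the control samples kept and with the array controls as a covariate. Without control samples 1 and 3, which leaves 1 control sample whose spread is assumed to be like that of the SNI samples, 7 members were lower and 1 was higher at an unadjusted p under 0.05, against 10.9% and 6.58% of all genes, and the median was −0.052 against −0.031 over all genes. Without control sample 2, 30 members were lower and 1 was higher, against 14.6% and 8.53% of all genes. With the array's mean hybridization control as a covariate, 3 members were lower, against 4.42% of all genes, and the median was −0.051 against −0.0062. Since these controls do not overlap between the groups, group and covariate cannot be told apart in this fit, and its estimates are less precise. Atp5f1a, for example, lay at −0.22 with an unadjusted limma p of 0.11, whereas Ndufab1 lay at −0.0099. No member passed an adjusted p of 0.05 in any of the 15 fits.

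**Figure D1:**
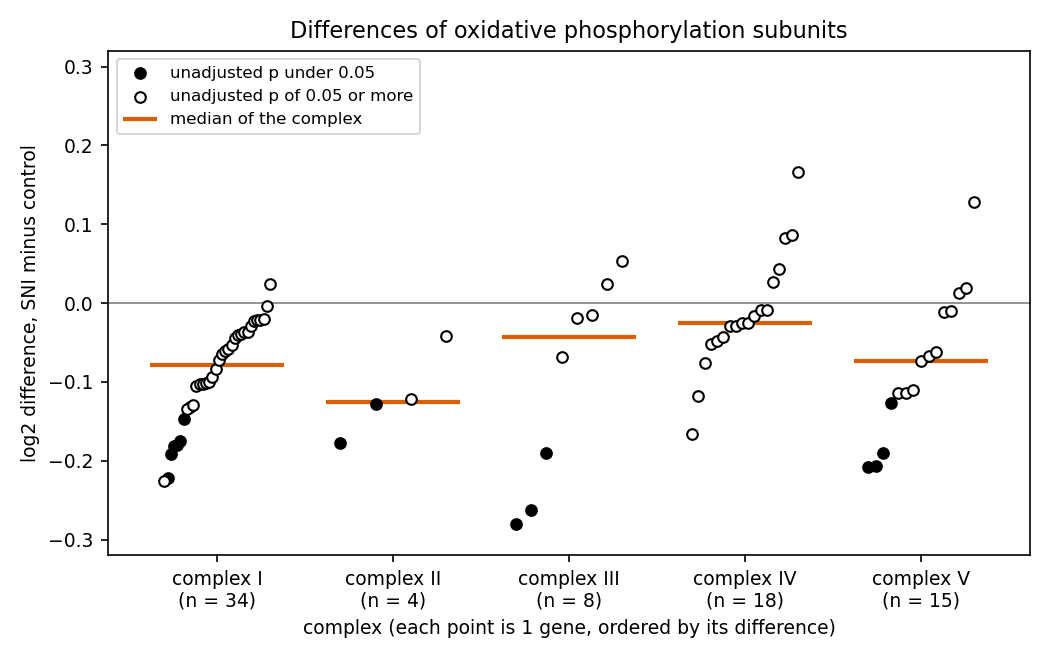
Log2 difference (SNI minus control) of the 79 subunits, grouped by complex, with 1 point per gene, filled where the unadjusted limma p was under 0.05, and an orange line at the median of the complex. The filled points lie below 0 in complexes I, II, III and V, and complex IV has none.

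Grouped by complex, the median log2 difference was −0.078 in complex I, −0.13 in complex II, −0.044 in complex III, −0.025 in complex IV and −0.074 in complex V. Members with an unadjusted p under 0.05, all lower in SNI samples, numbered 7 of 34, 2 of 4, 3 of 8, 0 of 18 and 4 of 15 in the same order, against 9.19% of all genes lower and 3.96% higher. Without control samples 1 and 3 they numbered 2, 0, 1, 2 and 1, with 1 member of complex IV higher, against 10.9% of all genes lower and 6.58% higher, and the medians were −0.048, −0.099, −0.081, −0.035 and −0.062. With single samples left out, the median of complex IV ranged between −0.035 and −0.0076 (without SNI sample 1, and −0.016 without control sample 2), and that of complex III between −0.066 (without SNI sample 3) and −0.035. The mean of complex II was −0.069, −0.049 and −0.037 in SNI samples 1 to 3 and 0.073, 0.053 and 0.070 in control samples 1 to 3, and that of complex V was −0.038, −0.032 and −0.038 in SNI samples 1 to 3 and 0.025, 0.031 and 0.062 in control samples 1 to 3. Both put every SNI sample below every control sample, as the means of complexes I and III and the smaller shift of the mean over all genes did. The mean of complex IV was 0.0059, 0.00097 and −0.014 in SNI samples 1 to 3 and −0.028, 0.032 and 0.029 in control samples 1 to 3, and its groups overlapped. Its 18 members mix general forms with forms of muscle, lung and testis, which are set side by side below. In control sample 1, Cox6b2, Ndufa4l2, Cox7a1, Cox4i2 and Cox8b lay between −0.23 and −0.12, but Cox6a2 at 0.15. The general forms Cox4i1, Cox6b1, Cox6a1 and Cox8a lay at 0.033, 0.070, 0.029 and 0.013 in that sample. A mean without the tissue forms was not taken. The differences between complexes were not tested, since a p over the members of a list would treat genes as replicates.

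**Figure D2:**
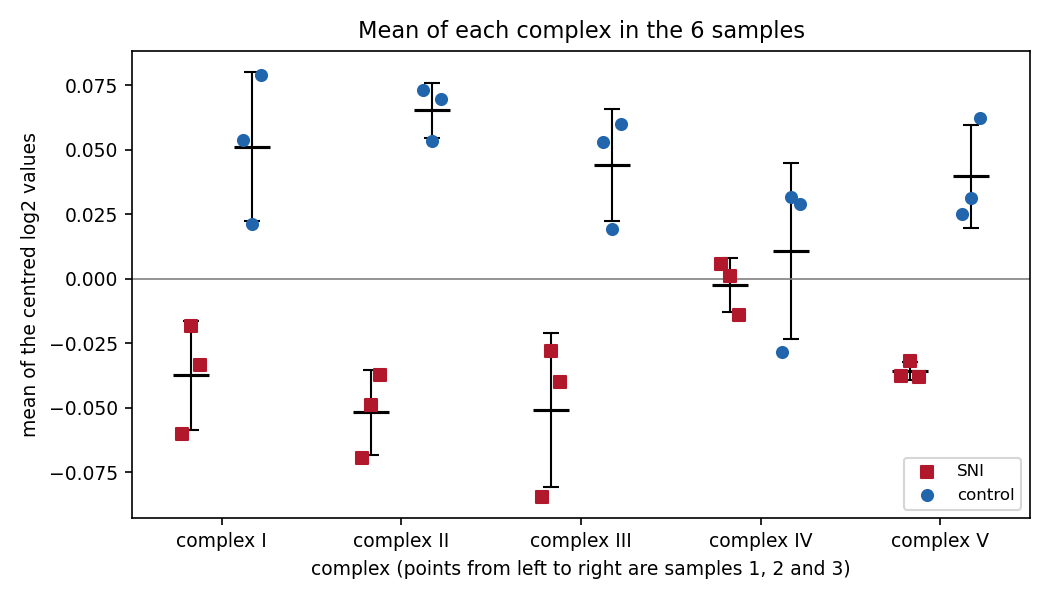
Mean of the centred log2 values of each complex's subunits in SNI samples (squares, left) and control samples (circles, right), with the mean and SD of each group (n = 3). The groups are apart for complexes I, II, III and V, and for complex IV control sample 1 (−0.028) lies below all SNI samples.

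With all samples and no covariate, the 2 lowest differences of the members belonged to core subunits of complex III, Uqcrfs1 and Uqcrc2. Uqcrfs1, the Rieske iron-sulfur protein that takes electrons from ubiquinol, had values of −0.27, −0.075 and −0.15 in SNI samples 1 to 3 and 0.10, 0.075 and 0.17 in control samples 1 to 3. The groups did not overlap, SNI sample 1 was the lowest, and the log2 difference was −0.28 (SE 0.066, limma adjusted p = 0.203), which is 82.4% of the control value on the linear scale. Its difference was −0.24 without control samples 1 and 3 and −0.12 with the hybridization control covariate. Under the covariate many members lay lower than Uqcrfs1, among them Cox6a2 (−0.41), Ndufaf7 (−0.38), Ndufs4 (−0.31), Uqcrc2 (−0.18) and Cyc1 (−0.17). Uqcrc2, a core protein of the matrix side, measured −0.21, −0.032 and −0.093 in SNI samples and 0.18, 0.032 and 0.23 in control samples, with a difference of −0.26 (SE 0.075, limma adjusted p = 0.231). Control sample 2 was the nearest to the SNI samples, and the difference was −0.15 without control samples 1 and 3 and −0.18 with the covariate. Both probe sets of Uqcrc2 gave lower values in SNI samples, with differences of −0.22 and −0.30, and the groups overlapped in the second. Cyc1, cytochrome c1, which hands electrons to cytochrome c, measured −0.11, −0.10 and −0.051 in SNI samples and 0.10, 0.051 and 0.15 in control samples, a difference of −0.19 (SE 0.054, limma adjusted p = 0.231). Uqcrc1, the other core protein, differed by −0.069 with a 95% confidence interval of −0.20 to 0.058, and its groups overlapped. The mean of the 4 core subunits was −0.16, −0.063 and −0.074 in SNI samples 1 to 3 and 0.097, 0.063 and 0.14 in control samples 1 to 3. The 4 small subunits measured, Uqcrq, Uqcr11, Uqcrh and Uqcr10, lay between −0.019 and 0.054, and the groups overlapped for each.

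Complex II consists of 4 subunits, and all 4 had differences below 0. Sdhd, 1 of the membrane anchors that bind ubiquinone, had values of −0.10, −0.090 and −0.081 in SNI samples 1 to 3 and 0.10, 0.054 and 0.10 in control samples 1 to 3. The SNI samples lay close together and below each control sample, and the log2 difference was −0.18 (SE 0.050, limma adjusted p = 0.23). Its probe sets gave differences of −0.24 and −0.12, both with groups apart, and without control samples 1 and 3 the gene differed by −0.14. Sdhb, the iron-sulfur subunit, differed by −0.13 (limma adjusted p = 0.376) and with the covariate by −0.030, and Sdha, the flavoprotein that oxidizes succinate, differed by −0.12 (limma adjusted p = 0.39). For Sdha, the values were −0.096, −0.023 and −0.047 in SNI samples and 0.11, 0.023 and 0.066 in control samples, also without overlap. Sdhc, the other anchor, measured −0.033, −0.050 and 0.033 in SNI samples and 0.047, 0.072 and −0.046 in control samples, with overlap and a difference of −0.041 (95% confidence interval −0.17 to 0.092).

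Complex I is the largest of the complexes, with a peripheral arm that oxidizes NADH and a membrane arm that pumps protons. Of its 34 measured subunits 33 had differences below 0, 14 had groups apart in that direction, and 7 had an unadjusted p under 0.05, against 54.8%, 13.7% and 9.19% of all genes. The 6 nuclear-encoded catalytic core subunits analysed all lay below 0, with a median of −0.12. Ndufs1, the largest core subunit, which carries iron-sulfur clusters, had values of −0.095, −0.054 and −0.097 in SNI samples 1 to 3 and 0.13, 0.054 and 0.11 in control samples 1 to 3, a difference of −0.18 (SE 0.052, limma adjusted p = 0.234). Ndufs3, of the module that reduces ubiquinone, measured −0.15, −0.044 and −0.064 in SNI samples and 0.081, 0.044 and 0.20 in control samples, and Ndufv2, an iron-sulfur subunit beside the NADH site, measured −0.043, −0.081 and −0.058 in SNI samples and 0.12, 0.050 and 0.043 in control samples. The groups were apart for both, with differences of −0.19 and −0.13, which with the covariate were −0.065 and −0.23. Ndufs8 (−0.10), Ndufv1 (−0.094), which binds NADH, and Ndufs7 (−0.073) did not reach an unadjusted p of 0.05, and the groups overlapped in Ndufv1 and Ndufs7.

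Among the 28 accessory subunits of complex I, which surround the core and do not carry electrons, 4 (14.3%) were lower at an unadjusted p under 0.05, against 9.19% of all genes, and the median was −0.060. Ndufb10, of the membrane arm, had the smallest p of the complex, with values of −0.099, −0.074 and −0.086 in SNI samples 1 to 3 and 0.093, 0.074 and 0.099 in control samples 1 to 3. Its samples spread little within each group, the difference without control samples 1 and 3 was −0.16, and with all samples it was −0.17 (SE 0.049, limma adjusted p = 0.23). Ndufs4, whose loss in humans and mice gives Leigh syndrome or a like disease, measured −0.15, −0.048 and −0.14 in SNI samples and 0.21, 0.048 and 0.074 in control samples, a difference of −0.22 (SE 0.064), with control sample 1 the highest. Ndufab1, the mitochondrial acyl carrier protein, differed by −0.18 and with the covariate by −0.0099, and Ndufc2, of the membrane arm, differed by −0.15 and without control samples 1 and 3 by −0.051. Ndufb6, also of the membrane arm, differed by −0.23, but its values were −0.23, 0.057 and −0.071 in SNI samples and 0.15, −0.057 and 0.34 in control samples, with overlap. Its difference was −0.13 without control sample 3, −0.15 without SNI sample 1, −0.024 without control samples 1 and 3 and −0.0051 with the covariate. Ndufs6 alone of the 34 lay above 0, at 0.024 (95% confidence interval −0.090 to 0.14). The 6 assembly factors had a median of −0.17, which was −0.11 without control sample 3 or without SNI sample 2 and −0.053 without control samples 1 and 3. Ndufaf3, which helps build the ubiquinone module, measured −0.14, −0.10 and −0.060 in SNI samples and 0.11, 0.083 and 0.060 in control samples (difference −0.18, limma adjusted p = 0.23), and Ndufaf7, a methyltransferase of mitochondria, measured −0.087, −0.10 and −0.066 in SNI samples and 0.22, 0.048 and 0.027 in control samples (difference −0.18, limma adjusted p = 0.304, and −0.38 with the covariate). Both had groups apart, though the probe sets of Ndufaf7 gave −0.23 with groups apart and −0.13 with overlap. Ndufaf1, Ndufaf4, Ndufaf5 and Ndufaf8 had overlapping groups, with differences of −0.18, −0.15, −0.045 and 0.029.

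**Figure D3:**
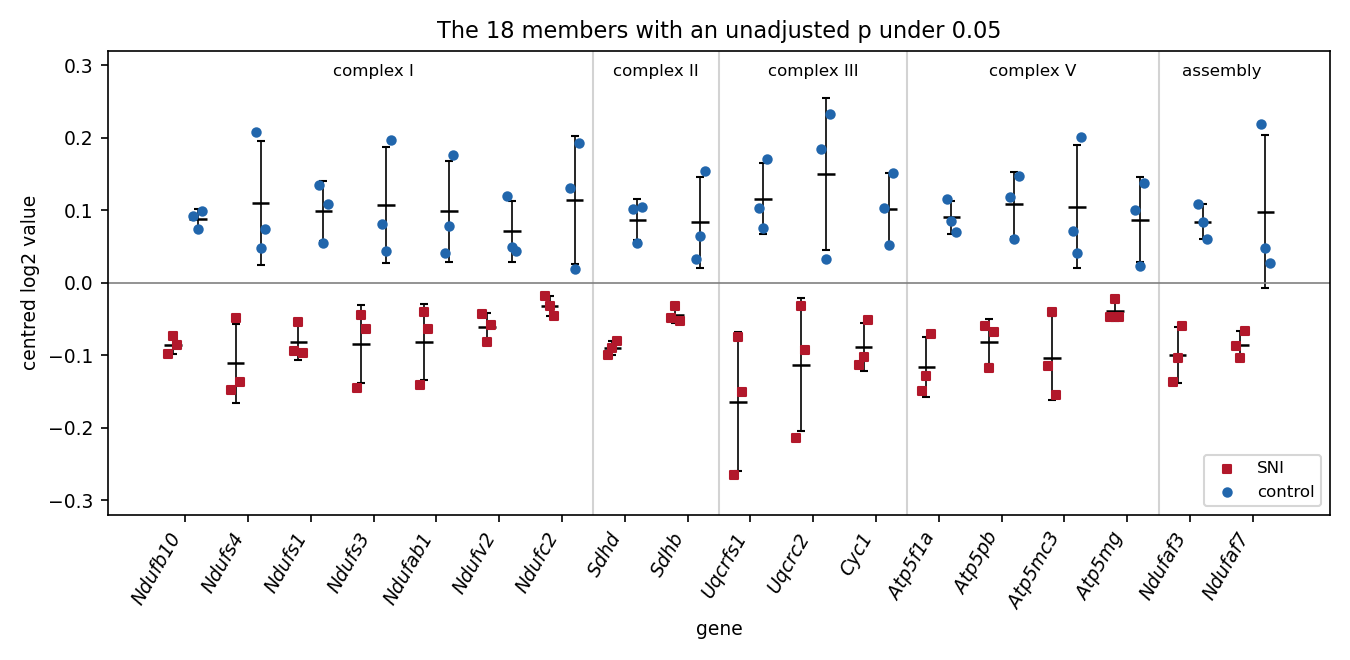
Centred log2 values of the 18 members with an unadjusted limma p under 0.05 in SNI samples (squares, left) and control samples (circles, right), with the mean and SD of each group (n = 3), ordered by complex and p. All SNI samples lie below 0 and all control samples above it. The centring on the median produces this for any single probe set whose groups do not overlap. Uqcrc2, Sdhd and Ndufaf7 are means of 2 probe sets, and for Uqcrc2 and Ndufaf7 the groups overlap in 1 of them.

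Complex V joins the F1 head, which makes ATP, to a ring and a stalk in the membrane. In the head, Atp5f1a, the alpha subunit, had values of −0.15, −0.13 and −0.070 in SNI samples 1 to 3 and 0.12, 0.086 and 0.070 in control samples 1 to 3, and the groups lay well apart. The log2 difference was −0.20 without control samples 1 and 3 and −0.21 with all samples (SE 0.052, limma adjusted p = 0.216). Atp5f1b, the beta subunit that carries the catalytic sites, measured −0.069, −0.070 and −0.037 in SNI samples and 0.055, 0.037 and 0.076 in control samples, a difference of −0.11 (limma adjusted p = 0.38), and Atp5f1c, the gamma subunit of the rotating shaft, differed by −0.11, both with groups apart. Atp5f1e, the epsilon subunit of the same shaft, lay the other way, with values of 0.024, 0.032 and 0.061 in SNI samples 1 to 3 and −0.076, −0.024 and −0.17 in control samples 1 to 3. Each SNI sample exceeded each control sample, and the difference was 0.064 without control samples 1 and 3 and 0.13 with all samples (SE 0.057, limma adjusted p = 0.394). Atp5f1d, the delta subunit, differed by −0.074, with overlap.

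Outside the head, 3 of the 10 members of complex V were lower at an unadjusted p under 0.05, against 9.19% of all genes. Atp5pb, the b subunit of the peripheral stalk, measured −0.060, −0.12 and −0.068 in SNI samples and 0.12, 0.060 and 0.15 in control samples (difference −0.19, SE 0.053, limma adjusted p = 0.23). Atp5mc3, which encodes the same c-ring protein as Atp5mc1 and Atp5mc2, measured −0.12, −0.041 and −0.16 in SNI samples and 0.072, 0.041 and 0.20 in control samples (difference −0.21, SE 0.064, limma adjusted p = 0.25, and −0.10 with the covariate). Atp5mg, the g subunit of the membrane part, differed by −0.13 (limma adjusted p = 0.377) and without control samples 1 and 3 by −0.062. The groups were apart for these 3 and for Atp5pd (−0.11), Atp5pf (−0.068) and Atp5mk (−0.062). Atp5po, the stalk subunit that confers sensitivity to oligomycin, had probe sets of opposite sign, −0.11 with groups apart and 0.14 with overlap, and its mean of 0.013 stands for neither. Atp5if1, which inhibits the enzyme when it runs backwards, differed by 0.0079 (95% confidence interval −0.12 to 0.14).

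**Figure D4:**
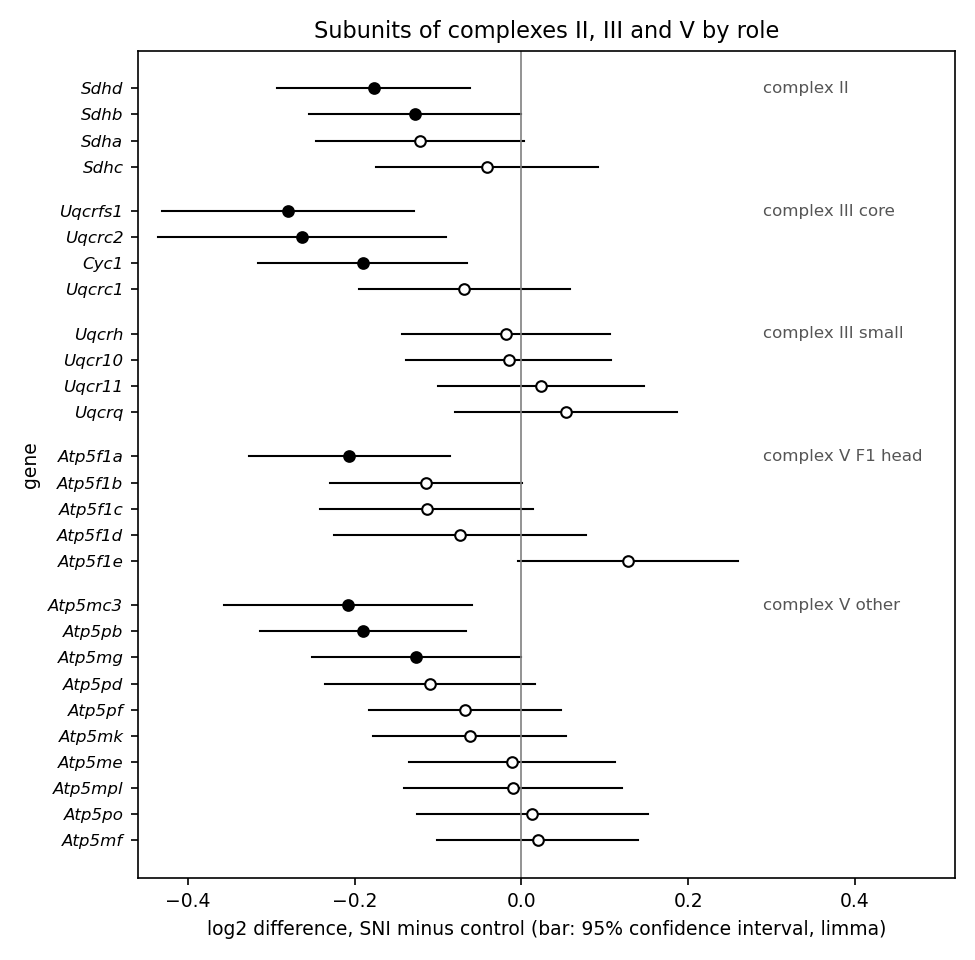
Log2 difference (SNI minus control, x axis) with its 95% confidence interval from limma for each subunit of complexes II, III and V, grouped by role and filled where the unadjusted p was under 0.05. The 4 core subunits of complex III lie between −0.28 and −0.069 and its 4 small subunits between −0.019 and 0.054, and Atp5f1e at 0.13 is the only point of the F1 head above 0.

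In complex IV none of the 18 members had an unadjusted p under 0.05, against 9.19% of all genes lower and 3.96% higher. The groups overlapped for 15 of the 18, against 11357 of all 14217 genes. The difference of Uqcrfs1, −0.28, lay within the 95% confidence interval of 3 members, Cox6a2, Cox6b2 and Cox8b, and outside that of the other 15. Uqcrfs1 was picked as the lowest member in these same data, and its own interval was −0.43 to −0.13. The intervals of Uqcrc1, Sdha and Atp5f1b, of other complexes, also left out −0.28, so this comparison does not set complex IV apart. Ndufa4, first described in complex I and now placed in complex IV, had the smallest p, with values of −0.069, −0.033 and −0.053 in SNI samples 1 to 3 and 0.033, 0.042 and 0.12 in control samples 1 to 3. Its groups were apart, and the difference was −0.12 (SE 0.053, limma adjusted p = 0.398), or −0.034 with the covariate. Cox7b also had groups apart, at −0.076, whereas Cox7a2l, which links complex III to complex IV in mice, was higher in each SNI sample, with values of 0.037, 0.043 and 0.0076 in SNI samples and −0.0076, −0.081 and −0.071 in control samples and a difference of 0.082 (95% confidence interval −0.037 to 0.20). Cox5a, a subunit of the matrix side, had the highest difference with all samples, 0.17, but its values were 0.17, 0.018 and −0.11 in SNI samples and −0.018, −0.43 and 0.028 in control samples, and without control sample 2 the difference was 0.021. Another probe set, annotated to Cox5a and LOC100361008 and therefore outside the rule, gave −0.15 with groups apart.

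Several complex IV subunits exist as isoforms of different tissues, and the pairs were set side by side. Cox4i1, the general form of subunit 4, differed by −0.025 (95% confidence interval −0.14 to 0.092), and Cox4i2, known from lung, by −0.025 (−0.28 to 0.23). Cox6a1 differed by 0.026, and Cox6a2, the heart and muscle form, by −0.17, with values of 0.051, −0.14 and −0.11 in SNI samples and 0.15, 0.19 and −0.051 in control samples. Cox8a differed by −0.0085 and Cox8b, the muscle form, by −0.029, while Cox6b1 and Cox6b2, the testis form, differed by −0.048 and −0.0082. In each of these pairs the form of muscle, lung or testis had the larger SD in both groups, and the groups overlapped for every gene of these pairs. Cox7a1, the muscle form of subunit 7a, differed by 0.043 (95% confidence interval −0.17 to 0.26), and its general form Cox7a2 shares a probe set with Cox7a2l2, which gave −0.032 with groups apart. Ndufa4l2, known for its induction under hypoxia, differed by 0.086, with overlap. The array also reads COX1 and COX2, catalytic subunits of complex IV encoded by mitochondrial DNA and outside the rule, which were looked up after the nuclear values were seen. COX1 differed by −0.0029 and COX2 by −0.021, each with an SE of 0.050 to 0.051 and with overlapping groups.

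Of 7 probe sets that match the rule but carry several symbols, and therefore were left out, all had differences below 0. The probe set of Ndufa10 and Ndufa10l1 differed by −0.50 with groups apart, and that of Atp5mc1 and Atp5mc1l1 by −0.24 with groups apart. Those of Atp5mc2, Uqcrb and Ndufs5 with their copies lay at −0.050, −0.064 and −0.0093, with overlap. As the symbols share probes, no value can be given to either gene alone.

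Promoter sequence was examined because many nuclear-encoded subunits are known to share binding sites for nuclear respiratory factors. RefSeq promoters of build GRCr8, from 250 bases before to 50 bases after the start, were matched for 78 of the 87 members, for 27457 genes in all and for 11700 of the genes on the array, and both strands were searched. The NRF-1 motif GCGCANGCG occurred in 24.4% of members, 11.5% of array genes and 6.46% of all genes, and the GABP motif CCGGAAG in 28.2%, 15.4% and 9.63%. The YY1 motif AAGATGG occurred in 25.6% of members, 8.22% of array genes and 7.77% of all genes, and the Sp1 motif GGGCGG in 43.6%, 58.6% and 36%. The CRE motif TGACGTCA was found in 3.85% of members, 2.93% of array genes and 2% of all genes. Among the 17 members with an unadjusted p under 0.05 and a promoter entry, 3 held the NRF-1 motif, 6 GABP, 2 YY1, 7 Sp1 and 1 CRE, against 16, 16, 18, 27 and 2 of the other 61. A match is a description of letters and not a binding site. The 250 bases before the start are shown for the member with the smallest p in complexes II, III and V, because these held a match, which stands in capitals (GABP in Sdhd, Sp1 in Uqcrfs1, and Sp1 followed by GABP without overlap in Atp5f1a).
Sdhd, chr8:59850642-59850891, minus strand: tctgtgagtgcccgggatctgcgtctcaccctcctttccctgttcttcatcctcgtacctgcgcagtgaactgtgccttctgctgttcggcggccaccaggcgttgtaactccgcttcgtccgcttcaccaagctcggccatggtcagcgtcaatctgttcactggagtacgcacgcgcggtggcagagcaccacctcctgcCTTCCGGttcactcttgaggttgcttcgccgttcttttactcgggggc
Uqcrfs1, chr17:34186352-34186601, plus strand: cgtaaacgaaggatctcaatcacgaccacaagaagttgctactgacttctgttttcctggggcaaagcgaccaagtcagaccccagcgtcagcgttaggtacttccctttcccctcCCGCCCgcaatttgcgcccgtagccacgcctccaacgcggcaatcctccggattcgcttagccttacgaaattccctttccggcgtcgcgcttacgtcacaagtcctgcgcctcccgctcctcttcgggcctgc
Atp5f1a, chr18:73567287-73567536, plus strand: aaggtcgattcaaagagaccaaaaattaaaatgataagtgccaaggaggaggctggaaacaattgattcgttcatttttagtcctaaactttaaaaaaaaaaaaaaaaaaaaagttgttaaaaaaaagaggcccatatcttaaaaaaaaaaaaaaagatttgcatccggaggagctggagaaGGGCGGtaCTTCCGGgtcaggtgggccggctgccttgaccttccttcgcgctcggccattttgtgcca

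In Sdhd the GABP match begins 48 bases before the start, in Uqcrfs1 the Sp1 match begins 134 bases before it, and in Atp5f1a the matches begin at 68 and 60 bases. No match stood in this stretch of Ndufb10 or Ndufa4, the members with the smallest p in complexes I and IV. The counts above rest on all 300 bases searched, which also take in bases after the start that are not printed. In these, Ndufb10 held 1 NRF-1 match and Sdhd held 2 GABP matches and 1 Sp1 match in all, while Ndufa4 held none.

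Other genes of the pathway were taken from lists of names. Of 46 measured assembly factors and electron carriers outside the rule, 6 (13%) were lower and 0 higher at an unadjusted p under 0.05. The shares of all genes were 9.19% lower and 3.96% higher, and the median of the list was −0.070. The 6 genes are therefore named as a description and not as a result about the list. The 6 were Cox16 (−0.28), Ttc19 (−0.25), Sco1 (−0.23), Coq2 (−0.23), Cox15 (−0.19) and Etfb (−0.18), of which Sco1, Cox15 and Cox16 serve the assembly of complex IV, Ttc19 serves complex III, Coq2 makes ubiquinone and Etfb carries electrons from fatty acid oxidation. Of 15 regulators of mitochondrial gene expression, 3 were lower and 1 was higher, against the same shares. Tfam, which packages and transcribes mitochondrial DNA, differed by −0.21, Tefm, the elongation factor of mitochondrial transcription, by −0.22, and Ppargc1a, a coactivator of mitochondrial genes, by −0.17 with overlap, while its relative Ppargc1b lay at 0.16 with groups apart. Nrf1 and Gabpa, which encode factors for the motifs above, lay at −0.0031 and 0.025, with overlap.

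Markers of several cell types also differed in mean between the groups, and their counts stand against 9.19% of all genes lower and 3.96% higher at an unadjusted p under 0.05, and 13.7% apart and lower. The mean of 12 neuronal markers was −0.11, −0.0097 and −0.057 in SNI samples 1 to 3 and 0.072, 0.0078 and 0.16 in control samples 1 to 3, with 5 members apart and lower, and 2 members lower at an unadjusted p under 0.05. Of the 12, 11 had a difference below 0, against 54.8% of all genes, with a median of −0.13 against −0.011. The 2 past this p were Syt1 and Snap25, of the synaptic release machinery, at −0.38 and −0.13. Gad2 (−0.20), Stmn2 (−0.12) and Eno2 (−0.11) were also apart and lower. Gad1, Nefm, Nefl and Rbfox3 lay at −0.23, −0.21, −0.15 and −0.093, and Slc17a7, Syp and Tubb3 at −0.062, −0.0068 and 0.024, all with overlap. The mean of 9 microglial markers was 0.17, 0.060 and 0.088 in SNI samples 1 to 3 and −0.14, −0.078 and −0.17 in control samples 1 to 3, with 6 members higher at an unadjusted p under 0.05. The 8 astrocyte markers averaged 0.021 in SNI samples and −0.070 in control samples, with 1 member higher, the 6 endothelial markers averaged 0.063 in SNI samples and −0.092 in control samples, with 2 higher, and these groups were apart. The 2 blood markers measured averaged 0.32 in SNI samples and −0.14 in control samples, with both higher, and the 6 oligodendrocyte markers averaged −0.033 in SNI samples and 0.075 in control samples, with overlap. The 3 markers of choroid plexus, at 0.013 in SNI samples and −0.017 in control samples, overlapped. The part of these shifts, of the array controls and of control samples 1 and 3 in the differences of the oxidative phosphorylation genes was not tested beyond the fits given above.

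Within groups, the members spread less than genes at large. The median SD over members was 0.035 in SNI samples and 0.055 in control samples, against 0.059 and 0.094 over all genes, and 63 of 87 members had the larger SD in control samples. Among the 33 members with SNI samples all lower, the lowest control sample was control sample 2 for 22, control sample 3 for 6 and control sample 1 for 5. Across the 87 members, the difference went with the length of the gene on the chromosome at a Spearman's rho of −0.30, against −0.040 over 14167 genes with a length, so that members with longer genes tended to lie lower. Genes are not independent replicates, and this relation is given as a description.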

How the data were processed

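RNA from the contralateral PL was labelled and hybridized to rat genome GeneChips (Affymetrix). The authors corrected the signals by RMA and deposited log2 values after quantile normalization, and every probe set is also centred on its median over the 6 samples, a step the sources used here do not describe. Which version of RMA was run is not given in the sources used here. Groups came from the sample labels. The 57 control probe sets of the array were excluded, and 20826 of the others carried 1 gene symbol in the platform annotation, which gave 14217 genes as means of probe sets. Each gene was fitted with lmFit and eBayes of limma 3.58.1 in R 4.3.3, two-sided and without covariates, as SNI minus control, with Benjamini-Hochberg adjustment across the 14217 genes. The same fit was run on simulated data with changes larger than the difference of any member, so its power at the sizes reported here was not checked. With 3 samples against 3, an exact permutation test of a single gene cannot go below a p of 0.1, so none was used. The genes named are, per complex, the 3 with the smallest p, the highest and the lowest difference, every member with an unadjusted p under 0.05 and groups apart, the core subunits, the F1 head and the isoform pairs, and other genes were named after their values were seen. The members and lists were chosen with earlier results of these data known. Depth has no counterpart on arrays, and their number limits the precision. Samples with the same replicate number were hardly correlated, which with 3 samples per group cannot settle whether the numbers pair them. The alternatives were aligned array medians, a repeat of quantile normalization, the methods' t-test, the median of probe sets, the hybridization controls as a covariate, the replicate number as a block, robust variances, each sample left out in turn, complexes by name alone, subunits alone and an unadjusted p under 0.01, with the omission of control samples 1 and 3 added after the data were seen. A filter on dim probe sets could not be applied to centred values. Figures were made in matplotlib 3.10.9 under Python 3.11.15.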

Additional observations from a re-analysis of the deposited data

Results flagged for a closer look

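The 18 hybridization control probe sets, which lie outside the comparison of genes, differed between the groups: their mean was 0.27 higher on the log2 scale in SNI samples, and every SNI sample exceeded every control sample.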

How the results depend on the processing

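All 18 members with an unadjusted p under 0.05 had a difference below 0 in each of the 15 fits. They had been picked as lower in the main fit, however. The methods' t-test, the replicate block and the robust variances also leave every difference unchanged. The number of members past this p was not stable. Against 18 genes and 16 probe sets past an unadjusted p of 0.05 in either direction, the methods' t-test gave 32 genes and 34 probe sets, with 30 genes lower, 2 higher and 0 after Benjamini-Hochberg adjustment, against 8.9% of all genes lower and 3.67% higher. The hybridization controls as a covariate, which did not overlap between the groups and so cost precision, left 3 genes and 3 probe sets. Of these, 1 gene was among the 18, and the median of complex I was −0.038. Without control samples 1 and 3 there were 8 genes and 10 probe sets, 4 genes were among the 18, and the medians of complexes I, II and III were −0.048, −0.099 and −0.081. At an unadjusted p under 0.01 there were 10 genes, all lower, against 3.04% of all genes lower. With 1 sample left out, the counts ranged between 12 and 31 genes and between 12 and 26 probe sets, both highest without control sample 2, while 5.69% to 14.6% of all genes were lower and 2.36% to 8.53% higher. The medians then ranged between −0.089 and −0.065 in complex I, −0.14 and −0.11 in complex II, −0.066 and −0.035 in complex III, −0.035 and −0.0076 in complex IV, and −0.10 and −0.064 in complex V. The replicate number as a block gave 15 genes, all lower, with 14 of the 18 among them, against 7.46% of all genes lower. Deviations of same-numbered samples correlated at 0.0085, −0.0098 and −0.069. These values showed no pairing by number, but too few samples were available to settle it. Fits that leave the differences unchanged cannot reverse a direction, nor can the median of probe sets for a gene with 1 probe set. Of 616 values of 44 named genes under alternatives, these fits included, 595 kept their direction and 21 reversed, and the cause was not tested. The 18 members past an unadjusted p of 0.05 lost it in 68 of 252 such values, and the other named genes reached it in 23 of 364. Reversed with the covariate were Atp5f1d at 0.13, Ndufv1 at 0.083, Cox4i2 at 0.29, Cox5a at −0.11, Cox6a1 at −0.033, Cox6b2 at 0.48 and Cox8b at 0.32. Without control samples 1 and 3, Cox4i1 lay at 0.0012, Cox6b2 at 0.043 and Cox7a1 at −0.11, and with quantile normalization repeated Cox6b2 lay at 0.0046. With 1 sample left out, Cox4i2 ranged between −0.11 and 0.10, Cox6b2 between −0.14 and 0.15, Cox7a1 between −0.043 and 0.12, Cox8a between −0.026 and 0.0046 and Cox8b between −0.13 and 0.089.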
